A study of Sus scrofa with 59 samples.

Results

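The fast fibre contractile genes described here are MYH2, MYL1, MYLPF, TNNT3, TNNI2, TNNC2, TPM1, ATP2A1 and MYOZ1. They were chosen by the gene symbol that the platform annotation gives a probe set, and these 9 genes have 12 of the 23999 probe sets on the array other than controls. MYL1, MYLPF, TNNT3, TNNI2, TNNC2, MYH2 and MYOZ1 have 1 probe set each, ATP2A1 has 2 and TPM1 has 3. The muscle was the longissimus dorsi of the back, taken from 59 pigs of an LD/LW x Duroc cross. The pigs were raised together on an experimental farm with free access to feed, were 170 days old, and had their muscle snap-frozen at slaughter, with 1 Affymetrix array per pig. Carcass and meat quality traits were recorded in the study, and their values per pig were not analysed here. The labels give 1 group, with no sex and no array batch, so all comparisons below are between pigs and between genes measured in the same pigs.

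Skeletal muscle contracts when myosin heads on the thick filament pull on actin in the thin filament, and calcium released into the fibre switches this on through troponin and tropomyosin. Fast and slow fibres build the same machine from different gene copies, and fast fibres draw more of their energy from glycolysis while slow fibres rely on mitochondrial respiration. The pig longissimus is known as a muscle made mostly of fast fibres. MYH2 encodes the myosin heavy chain of type IIa fibres, which are fast but more oxidative than the other fast types. It is therefore described apart from the other 8 genes.

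Deposited values ran from 2.39 to 15.04 and were read as log2, although no source used here names the base. Array medians lay between 6.23 and 6.30, and any pair of arrays correlated at 0.969 to 0.995. The brightest value on an array lay between 14.96 and 15.04. A probe set was tested when its mean reached 6.27, the median over probe sets, and 12000 did so. Of the 12 probe sets of the fast fibre genes, 11 passed and the dimmest one of TPM1 did not. Signals of different probe sets cannot be read as relative amounts of RNA, because each has its own probes. In whole muscle, fewer fast fibres and less RNA per fibre cannot be told apart. The number of arrays limits precision.

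Fast fibre genes sat at the top of the scale with little spread between pigs. The brightest probe set had a mean above 14 for 8 of the 9 genes, and only 51 probe sets, or 0.213% of those on the array, were that bright. The median SD of these 51 was 0.058, against 0.210 over all probe sets tested. Small differences in log2 signal are therefore all that these genes show, and how far the top of the scale compresses larger differences in RNA was not tested.

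MYH2 had a signal of 14.56 in the lowest pig, 14.73 in the median pig and 14.80 in the highest, with a mean of 14.72 ± 0.048 (SD, n = 59). The distance from the lowest to the highest pig was 0.24 log2, or 1.18-fold. Only 7 probe sets on the array were brighter. The 59 pigs had 52 distinct MYH2 values, so some pigs were tied exactly. The neighbouring fast myosin genes MYH1 and MYH4, close relatives in sequence that encode the type IIx and IIb heavy chains, have no probe set under their own symbol in the annotation. Any signal from them at the MYH2 probe set cannot be told apart from that of MYH2.

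The light chains also had signals close to the array maximum, with little spread. MYL1, the essential light chain of fast myosin, ranged from 14.66 in the lowest pig through a median of 14.76 to 14.82 in the highest (mean 14.76 ± 0.037, SD, n = 59). MYLPF, the fast regulatory light chain, ranged from 14.59 through a median of 14.70 to 14.77 (mean 14.70 ± 0.036, SD, n = 59). Neither gene differed by more than 1.13-fold between any pair of pigs.

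The regulators of the thin filament differed among themselves in spread. TNNC2, the calcium-binding subunit of fast troponin, was the tightest of all 9 genes, from 14.68 through a median of 14.79 to 14.84 (mean 14.79 ± 0.029, SD, n = 59). Of the 100 probe sets nearest to it in mean signal, 2 had a smaller SD. Only 4 probe sets were brighter than TNNC2, so nearly all of these 100 were dimmer and do not match it in signal. TNNI2, the inhibitory subunit of fast troponin, ranged from 14.31 through a median of 14.51 to 14.58 (mean 14.50 ± 0.056, SD, n = 59). TPM1, alpha-tropomyosin, ranged from 14.08 through a median of 14.40 to 14.50 (mean 14.40 ± 0.068, SD, n = 59). TNNT3, the fast troponin subunit that binds tropomyosin, ranged from 13.87 through a median of 14.30 to 14.51 (mean 14.29 ± 0.113, SD, n = 59). Its extreme pigs differed by 1.56-fold, and 70 of its 100 neighbours in mean signal had a smaller SD.

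ATP2A1 and MYOZ1 completed the list. MYOZ1, a Z-disc protein of fast fibres that binds calcineurin, ranged from 13.97 through a median of 14.21 to 14.37 (mean 14.20 ± 0.082, SD, n = 59). ATP2A1, the calcium pump SERCA1 that returns calcium to the sarcoplasmic reticulum of fast fibres, was the only gene of the 9 whose brightest probe set lay clear of the top of the scale. It ranged from 11.45 through a median of 12.09 to 12.71 (mean 12.10 ± 0.245, SD, n = 59), a difference of 2.39-fold between the extreme pigs. The median SD of all tested probe sets, for comparison, was 0.210.

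**Figure D1:**
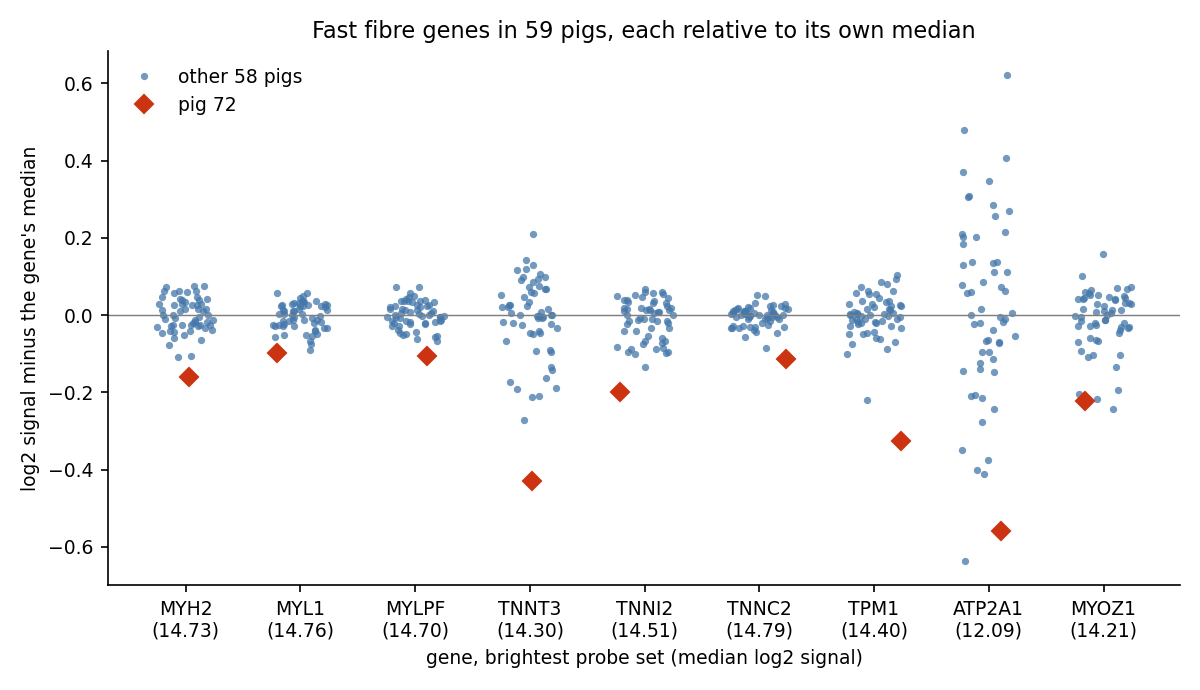
Log2 signal of the brightest probe set of each fast fibre gene in each of the 59 pigs, drawn as the difference from that gene's own median (in brackets under the gene), with pig 72 as a red diamond. ATP2A1 spreads over 1.26 log2 and TNNT3 over 0.64, while MYL1, MYLPF and TNNC2 stay within 0.18, and pig 72 is the lowest pig in 7 genes and the second lowest in ATP2A1 and MYOZ1.

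**Figure D2:**
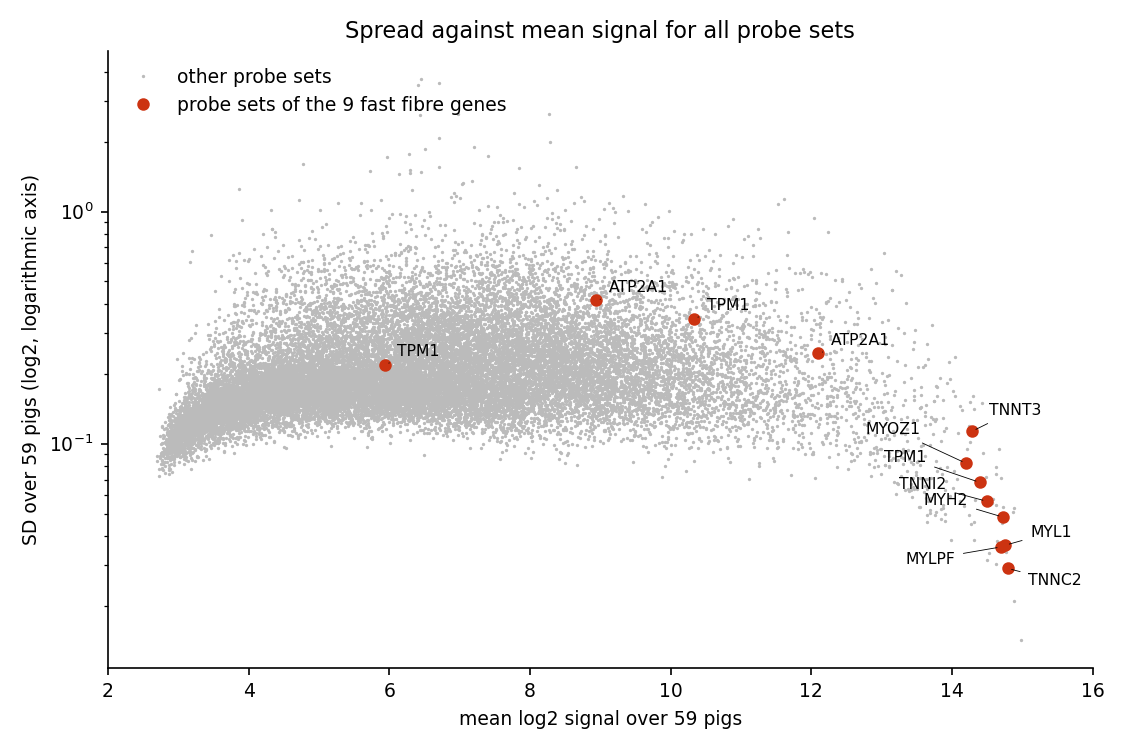
Standard deviation over 59 pigs (logarithmic axis) against mean log2 signal, with every probe set other than controls in grey and the 12 probe sets of the fast fibre genes in red. The brightest probe sets of 8 genes crowd above a mean of 14, where SDs are small, and the other probe sets of TPM1 and ATP2A1 lie lower, with larger SDs.

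The additional probe sets of TPM1 and ATP2A1 did not repeat the brightest one closely. The second TPM1 probe set had a mean of 10.33 ± 0.346 (SD, n = 59), ran from 9.79 to 11.56 and correlated with the brightest at r = 0.091. The third averaged 5.94 ± 0.219 (SD, n = 59), ran from 5.57 to 6.51 and correlated with the brightest at r = -0.516. TPM1 produces several tropomyosin isoforms by alternative promoters and splicing, and which of them each probe set reads was not tested. The second ATP2A1 probe set averaged 8.94 ± 0.414 (SD, n = 59), from 7.96 to 9.88, and correlated with the brightest at r = 0.448. In what follows a gene stands for its brightest probe set unless another is named.

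One animal, pig 72, stood at the low end of the whole list. It was the lowest of 59 in MYH2, MYL1, MYLPF, TNNT3, TNNI2, TNNC2 and TPM1, and the second lowest in ATP2A1 (11.53) and MYOZ1 (13.99). Its mean difference from the gene medians was -0.246 log2, against -0.142 in the next lowest animal, pig 52, and 0.112 in the highest, pig 15. The same animal had the highest signal of MYH7, the slow myosin heavy chain gene (14.75, against a median of 14.30). It also had the highest slow fibre score (3.36 SD, with 1.49 in the next pig), the highest oxidative phosphorylation score (3.25 SD) and the lowest glycolysis score (-3.35 SD, with -2.28 in the next pig). Its array median ranked 33 from the low end, and the median correlation of its array with the other arrays was 0.985, the 4th lowest, where the lowest was 0.977 and the median 0.989. Calls below that end without this animal are given with and without it.

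Some pigs were low or high across the whole list. A total of 9 pigs were below the median in all 9 genes and 6 pigs were above it in all 9. In 8 or more of the genes, 16 pigs were below the median and 11 above it.

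The fast fibre genes varied in the same direction from pig to pig. All 36 pairs among the 9 genes had a positive Pearson correlation over the 59 pigs, 26 of them above 0.5, with a median r of 0.614 (median Spearman rho 0.548). Without pig 72 the median r was 0.541 and the pairs ran from -0.030 (MYL1 with TNNT3) to 0.729 (TNNT3 with TPM1). These values describe the arrays and carry no test, since all genes of a pig share 1 array.

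The closest pairs lay within the thin filament genes or joined them to MYLPF. TNNT3 and TPM1, which touch each other on the thin filament, had r = 0.801. MYLPF and TNNC2 had r = 0.770, TNNT3 and TNNI2 r = 0.760, and MYLPF and TNNI2 r = 0.744. ATP2A1 was closest to MYOZ1, with r = 0.708.

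MYL1 was the loosest member, with a median r of 0.397 to the other 8 genes. Its correlation was 0.118 with ATP2A1 and 0.140 with TNNT3, while it reached 0.678 with MYH2 and 0.615 with MYLPF. With the remaining genes it was 0.365 (TNNI2), 0.392 (MYOZ1), 0.401 (TPM1) and 0.526 (TNNC2). The reason for these differences was not tested. MYH2 had the most even profile, from 0.521 with ATP2A1 to 0.704 with TPM1.

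**Figure D3:**
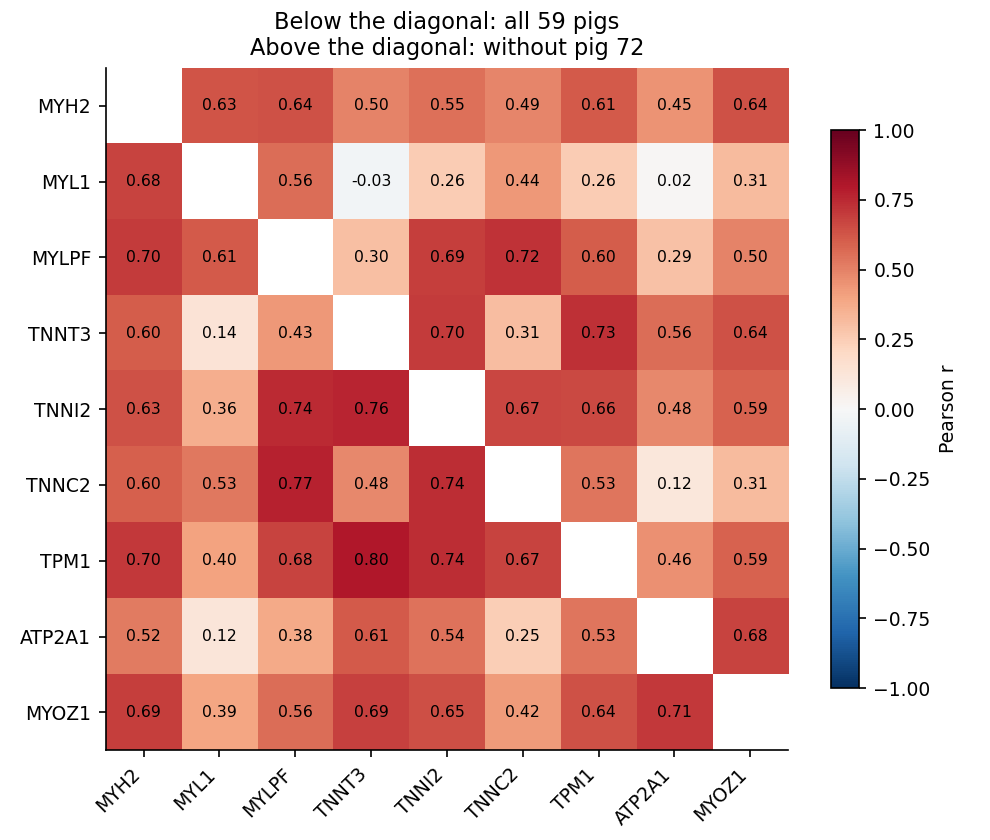
Pearson correlation between each pair of fast fibre genes over 59 pigs (below the diagonal) and over 58 pigs without pig 72 (above it), on a colour scale from -1 to 1. All 36 values below the diagonal are positive, from 0.118 (MYL1 with ATP2A1) to 0.801 (TNNT3 with TPM1), and the MYL1 row and column are the palest.

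Because the labels give no groups, the genes were compared with scores of other gene lists measured in the same pigs. A score is the mean of the standardised log2 values of a list's genes, scaled to an SD of 1, and a slope is the change in log2 signal per SD of the score. The glycolysis score holds 11 genes, PFKM, GAPDH and LDHA among them, the slow fibre score 9 genes (MYH7, MYL2, MYL3, TNNT1, TNNI1, TNNC1, TPM3, ATP2A2 and CA3), and the oxidative phosphorylation score 26 genes. Slopes were fitted with limma over all tested probe sets, leaving out those of the score's own genes, with a threshold of 0.05 after Benjamini-Hochberg adjustment. The fits share their arrays, so they are not independent of each other.

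Pigs with higher glycolytic gene signal had higher signal of most fast fibre genes. With the glycolysis score, 7 of the 9 genes were higher and none lower, where 18.6% of all tested probe sets were higher and 15.0% lower. The median r over the 9 genes was 0.725, against 0.020 over all tested probe sets. Counted by probe set, 7 of 11 passed, since the second probe sets of TPM1 and ATP2A1 did not.

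ATP2A1 had the steepest slope, 0.19 ± 0.020 log2 per SD (SE, n = 59 pigs, limma adjusted p = 1.48e-10, r = 0.784). TNNT3 followed with 0.09 ± 0.011 (adjusted p = 1.91e-09, r = 0.795) and MYOZ1 with 0.07 ± 0.0079 (adjusted p = 8.7e-10, r = 0.854). MYOZ1 thus had the closest relation of the 9 genes to the score, though not the steepest. TPM1 rose by 0.048 ± 0.0084 (adjusted p = 1.05e-05), TNNI2 by 0.044 ± 0.0073 (adjusted p = 4.62e-06) and MYH2 by 0.035 ± 0.0071 (adjusted p = 0.000118, r = 0.725). These 6 genes stayed past the threshold when any single pig was left out.

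The light chains and TNNC2 differed in their calls. MYLPF rose by 0.021 ± 0.0069 (limma adjusted p = 0.0145), and without pig 72 its adjusted p was 0.0582. TNNC2 had a slope of 0.015 ± 0.0066 (adjusted p = 0.0808, r = 0.50) and MYL1 one of 0.012 ± 0.0073 (adjusted p = 0.223, r = 0.315). limma pulls the spread of each probe set towards a common prior, here an SD of 0.182, which lies above the SD of each of the 8 genes with means above 14 and enlarges their standard errors. With a prior that follows the mean signal, an alternative chosen after seeing the data, TNNC2 passed (adjusted p = 0.00317) and MYL1 did not.

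**Figure D4:**
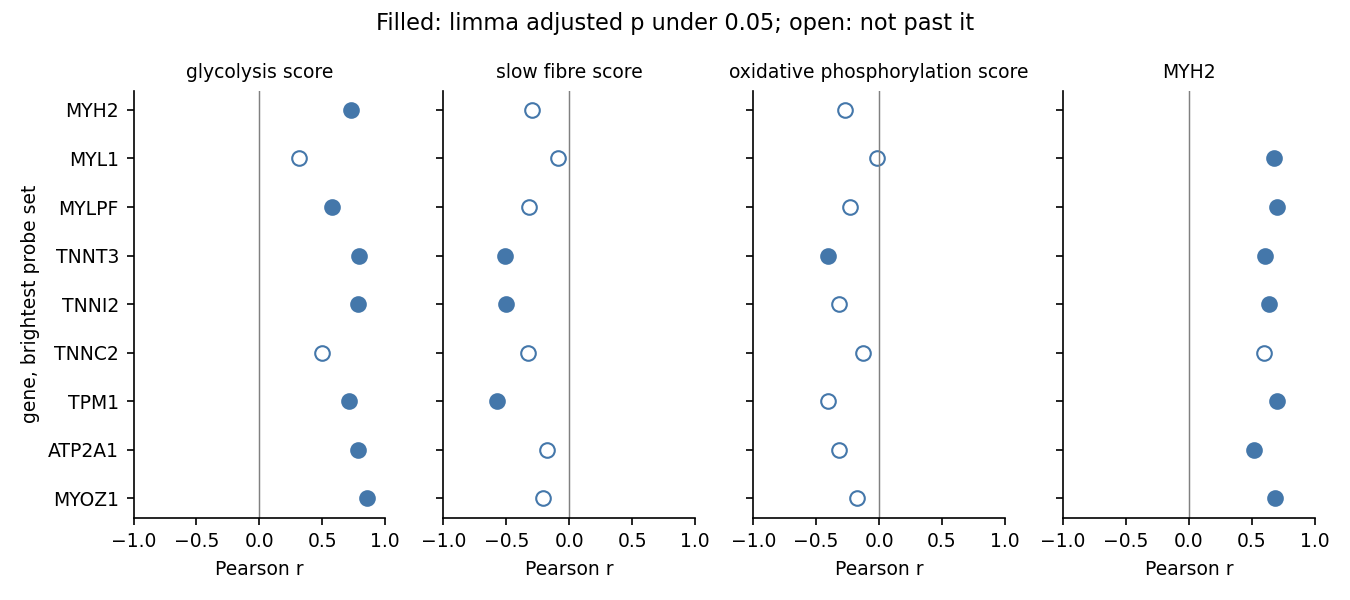
Pearson correlation of each fast fibre gene (rows) with the glycolysis score, the slow fibre score, the oxidative phosphorylation score and MYH2 signal (panels, left to right) over 59 pigs. Filled points passed the limma threshold and open points did not: 7 of 9 genes are filled for glycolysis, 3 for slow fibre, 1 for oxidative phosphorylation and 7 of 8 for MYH2.

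**Figure D5:**
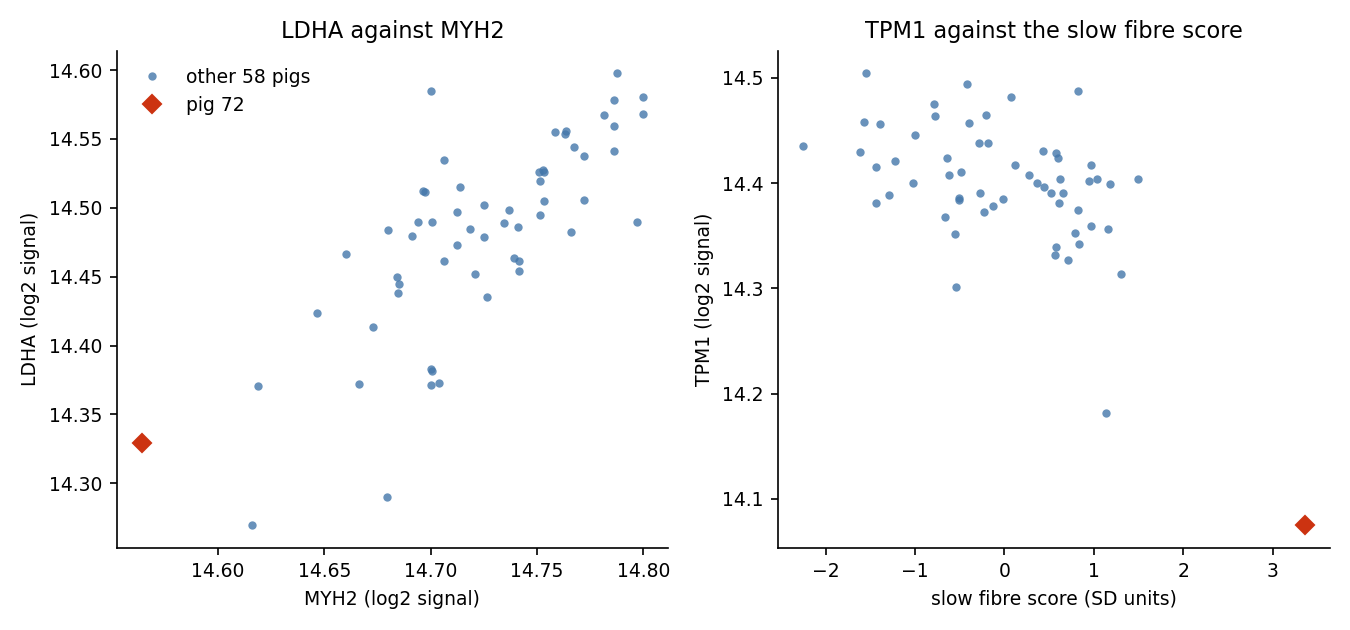
Left, log2 signal of LDHA against that of MYH2 in each pig; right, log2 signal of TPM1 against the slow fibre score in SD units, with pig 72 as a red diamond and the other 58 pigs as blue points. LDHA and MYH2 rise together (r = 0.762, and 0.741 without pig 72), while the TPM1 slope of -0.039 per SD over all 59 pigs was -0.023 without pig 72.

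Against the slow fibre score the fast fibre genes leaned downward, and no call held without pig 72. Over the 59 pigs, 3 of 9 genes were lower and none higher, where 1.86% of all tested probe sets were lower and 2.77% higher. The slopes were -0.058 ± 0.014 for TNNT3 (limma adjusted p = 0.00621), -0.039 ± 0.0092 for TPM1 (adjusted p = 0.00582) and -0.028 ± 0.0086 for TNNI2 (adjusted p = 0.0401). Without pig 72 no gene of the 9 passed, with adjusted p-values of 0.206, 0.258 and 0.336 for TNNT3, TPM1 and TNNI2. Their slopes were then -0.038, -0.023 and -0.020. In ranks over all 59 pigs, 2 of the 9 genes were lower. The number of all probe sets past the threshold, in both directions, was 555 with this pig and 123 without it.

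The other 6 genes did not pass against the slow fibre score. MYH2 had a slope of -0.014 ± 0.0083 (limma adjusted p = 0.386, r = -0.295). The median r over the 9 genes was -0.320, against -0.021 over all tested probe sets. MYL1 had the smallest slope, -0.0032, and TNNI2 lost its call when any 1 of 12 pigs was left out.

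The oxidative phosphorylation score gave a single call, TNNT3, which was lower by a slope of -0.046 ± 0.014 (limma adjusted p = 0.030, n = 59 pigs). Of all tested probe sets, 3.0% were lower and 6.87% higher. That call ended without pig 19, 52, 59 or 72, and the adjusted p was 0.353 without pig 72. TPM1 had a slope of -0.028 ± 0.0098 (adjusted p = 0.0623), ATP2A1 one of -0.079 ± 0.030 (adjusted p = 0.0918) and MYH2 one of -0.013 ± 0.0083 (adjusted p = 0.382). TPM1 passed when pig 20, 36 or 37 was left out, and ATP2A1 passed without pig 36.

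MYH2 signal was then used in place of a score, with slopes per SD of its log2 value. Of the other 8 fast fibre genes, 7 were higher with MYH2 and none lower, where 11.1% of all tested probe sets were higher and 5.85% lower. ATP2A1 had the steepest slope, 0.13 ± 0.028 (limma adjusted p = 0.00112), followed by TNNT3 with 0.07 ± 0.013 (adjusted p = 0.000298) and MYOZ1 with 0.057 ± 0.0096 (adjusted p = 6.72e-05). MYLPF and MYL1 rose by 0.025 ± 0.0067 each, with adjusted p-values of 0.00698 and 0.00846. TNNC2 had a slope of 0.017 ± 0.0065 and did not pass (adjusted p = 0.0546), though it did without pig 25, 30 or 57 and with the prior that follows the mean signal (adjusted p = 0.00105).

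A permutation test, which makes no use of limma's prior, placed all 8 genes past the threshold for their correlation with MYH2 (two-sided, 100000 resamples, Benjamini-Hochberg over all tested probe sets). By this test 10.9% of all tested probe sets were positively and 5.58% negatively correlated with MYH2. TPM1 had r = 0.704 and rho = 0.636, and MYLPF r = 0.701 and rho = 0.696, both with p = 1e-05, the smallest the resamples can give, and an adjusted p of 0.000845. ATP2A1 had the weakest relation, r = 0.521 and rho = 0.512 (permutation p = 6e-05, adjusted p = 0.00224). Leaving out pigs 72 and 41, whose MYH2 values lay farthest from its median, r ran from 0.430 (TNNT3) to 0.622 (MYLPF), and all 8 remained past the threshold. With the mean of a gene's tested probe sets in place of the brightest, TPM1 had r = 0.147 (permutation adjusted p = 0.457). ATP2A1 then had r = 0.326 (adjusted p = 0.0596), so neither passed.

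Among the 9 slow fibre genes, 3 were negatively correlated with MYH2 over all pigs. MYL2, the slow regulatory light chain, had r = -0.494 with MYH2 (permutation adjusted p = 0.00291), TNNC1, the slow troponin C, r = -0.401 (adjusted p = 0.0183) and TNNT1, the slow troponin T, r = -0.372 (adjusted p = 0.0316). In ranks they were weaker, with rho of -0.304, -0.252 and -0.203 and adjusted p-values of 0.0887, 0.175 and 0.288. MYH7 itself had r = -0.205 (adjusted p = 0.272). Without pigs 72 and 41 none of the 9 slow fibre genes passed, and without pig 72 alone MYL2 did, at r = -0.357 (adjusted p = 0.0482).

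The TPM1 probe set that did not pass the filter went against the other members. Without the filter it was lower with MYH2, by a slope of -0.12 ± 0.025 (limma adjusted p = 0.00168, n = 59 pigs), and with the glycolysis score, by -0.079 ± 0.027 (adjusted p = 0.0291). The middle TPM1 probe set was flat in both, with slopes of 0.0047 ± 0.045 on MYH2 (adjusted p = 0.959) and 0.017 ± 0.045 on the glycolysis score (adjusted p = 0.798). The second ATP2A1 probe set had slopes of 0.058 ± 0.053 on MYH2 (adjusted p = 0.476) and 0.044 ± 0.053 on the glycolysis score (adjusted p = 0.554).

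Over the values as deposited, the gene most like MYH2 was LDHA, the muscle form of lactate dehydrogenase, with r = 0.762 over the 59 pigs (rho = 0.744, permutation adjusted p = 0.000845). Its r was 0.702 without pigs 72 and 41. After quantile normalisation it was 0.588, below MYOZ1 (0.661), MYLPF (0.643), RAP1GDS1 (0.641), TNNT3 (0.615) and TPM1 (0.593). NEB, the giant thin filament protein nebulin, had r = 0.699 and RAP1GDS1 r = 0.689. At the other end stood SLC41A1 (r = -0.563), VPS72 (r = -0.556), PPP2CA, a catalytic subunit of protein phosphatase 2A (r = -0.535), PFKL, the liver form of phosphofructokinase (r = -0.531), and C1H9orf16 (r = -0.527). Without pigs 72 and 41 PFKL had r = -0.336 (permutation adjusted p = 0.0598) and C1H9orf16 r = -0.293 (adjusted p = 0.110), while the other 3 remained past the threshold.

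The closest genes of the other members followed from the same measure. TNNT3 was most like GPI (r = 0.862), ENO3, the muscle enolase (0.829), and PGAM2, the muscle phosphoglycerate mutase (0.822). MYOZ1 was most like DCAF6 and PGM1 (0.814 each) and PFKM, the muscle phosphofructokinase (0.795). TNNI2 was most like PYGM, the muscle glycogen phosphorylase (0.793), VAPA (0.767) and TNNT3. MYL1 was most like LDHA (0.690), MYH2 and RPP30 (0.648).

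TPM1 was most like TNNT3, VAPA (0.799) and SH3BGR (0.747). MYLPF was most like TNNC2, TNNI2 and SEC23A (0.728), while TNNC2 had only fast fibre genes, MYLPF, TNNI2 and TPM1, as its 3 closest. ATP2A1 was most like RTN2 (0.779), MYOM2, the M-band protein myomesin 2 (0.773), and EGF (0.765). These correlations are descriptions over 59 pigs whose genes share an array.

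Other gene lists of the muscle fibre were read in the same fit. Of 11 glycolysis genes 9 were higher with MYH2 and none lower, where 11.1% of all tested probe sets were higher and 5.85% lower. The median r of the 11 genes was 0.580, against 0.014 over all tested probe sets. PFKM rose by 0.097 ± 0.016 log2 per SD of MYH2 (limma adjusted p = 5.77e-05) and PGK1, phosphoglycerate kinase, by 0.065 ± 0.011 (adjusted p = 4.44e-05). Of the 26 oxidative phosphorylation genes 8 were lower and none higher, and 1 was lower without pig 72, 1 with arrays centred on their medians and 2 in ranks. Of the 11999 probe sets tested, 515, 493 and 620 were lower in these settings, in the same order. Of the 9 slow fibre genes 3 were lower in limma (TNNC1, MYL2 and TNNT1), and none without pig 72, where MYL2 had an adjusted p of 0.0574.

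Of 21 sarcomere genes listed here as shared by fast and slow fibres, 4 were higher with MYH2 and 2 lower (19.0% and 9.52%), where 11.1% and 5.85% of all tested probe sets were. Some of the 21 followed the scores. With the slow fibre score 2 were higher, MYBPC1 among them (slope 0.17, limma adjusted p = 0.00299), and 2 lower, and without pig 72 1 was higher and none lower. MYOM2 had r = 0.679 with the glycolysis score. The median r of the 21 genes with MYH2 was 0.073, against 0.014 over all tested probe sets. With MYH2, NEB rose by 0.040 ± 0.0078 (limma adjusted p = 0.000406), and both subunits of the protein that caps the thin filament at the Z-disc rose, CAPZA2 by 0.093 ± 0.015 (adjusted p = 4.63e-05) and CAPZB by 0.12 ± 0.022 (adjusted p = 0.000315). DES, the intermediate filament desmin, had a slope of -0.070 ± 0.017 (adjusted p = 0.00388), and XIRP2 one of -0.052 ± 0.014 (adjusted p = 0.00724). The XIRP2 call ended with arrays centred on their medians (adjusted p = 0.0821) and with the first principal component as a covariate (adjusted p = 0.202). MYOM2 was the 4th gene that rose, by 0.095 ± 0.033 (adjusted p = 0.0384), and its call ended when any 1 of 9 pigs was left out, without the filter (adjusted p = 0.0545), with centring (adjusted p = 0.161) and with the covariate (adjusted p = 0.659).

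The other probe sets at the top of the scale were read in the same fits. The 25 tested probe sets with means above 14 and no symbol from the gene lists had a median r of -0.337 with the glycolysis score and -0.242 with MYH2. Only 8 of these 25 have 1 gene symbol. Whether the rest read genes of the lists is not known, so the 25 cannot stand for bright genes outside the lists. None of the 25 was higher in either fit, while 13 were lower with the glycolysis score and 8 with MYH2. Of all tested probe sets, 18.6% were higher and 15.0% lower with the glycolysis score, and 11.1% higher and 5.85% lower with MYH2. The 8 with 1 gene symbol had a median r of -0.015 with the glycolysis score and 0.292 with MYH2. None of these 8 was higher in either fit, while 2 were lower with the glycolysis score and 1 with MYH2.

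Markers of 7 other cell types were also read: adipocytes, fibroblasts, leukocytes, red blood cells, endothelium, smooth muscle, and nerve with Schwann cells. Of their 32 tested genes, 1 was higher with MYH2 and 2 were lower, where 11.1% and 5.85% of all tested probe sets were, and these counts were the same without pig 72. Those that passed with MYH2, named after their values were seen, were LUM, a matrix proteoglycan (slope 0.20, limma adjusted p = 0.0109), LEP, the adipocyte hormone leptin (-0.073, adjusted p = 0.0137), and ENG, an endothelial receptor (-0.076, adjusted p = 0.00313). The median r with MYH2 was 0.132 over the 7 fibroblast genes, 0.164 over the 6 adipocyte genes and -0.172 over the 6 endothelial genes. LEP thus went against the median of its list. With the glycolysis score 2 markers were higher and 3 lower, where 18.6% and 15.0% of all tested probe sets were, and without pig 72 the counts were 3 higher and 0 lower. With the slow fibre score 2 markers were higher and none lower, where 2.77% and 1.86% of all tested probe sets were. The 2 markers were LPL, lipoprotein lipase, of the adipocyte list, and CDH5, the endothelial cadherin. The median r with the slow fibre score was 0.030 over the 6 adipocyte genes and 0.283 over the 6 endothelial genes. LPL thus does not stand for the other adipocyte genes. Without pig 72 LPL had an adjusted p of 0.0487 and CDH5 one of 0.0554. The same 2 genes were higher with the oxidative phosphorylation score and no marker was lower, where 6.87% and 3.0% of all tested probe sets were. Neither gene passed without pig 72 (limma adjusted p = 0.110 for LPL and 0.0902 for CDH5). The median r with the oxidative phosphorylation score was -0.014 over the 6 adipocyte genes and 0.180 over the 6 endothelial genes. The part of such cells in the slopes of the fast fibre genes was not tested.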

How the data were processed

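Total RNA from the longissimus dorsi of 59 pigs was labelled with biotin and hybridised to Affymetrix porcine arrays, per the labels' protocols. Deposited values, 1 for each probe set in each pig, were taken as log2. The authors made it with GCRMA, per the submitters' processing notes; its version and the log base are not given in the sources used here. GCRMA corrects background by probe sequence and normalises by quantiles, which can compress differences near the floor and the top of the scale; this was not tested.

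From these values, means, SDs and correlations over pigs were computed for every probe set of the 9 symbols. Symbols came from the platform annotation: 10099 probe sets had 1, 198 several and 13826 none. The 124 controls were left out. Slopes on 3 list scores and on MYH2 were fitted with limma 3.58.1 (lmFit and eBayes, R 4.3.3), for 12000 probe sets and 4928 genes at or above a mean of 6.27, with Benjamini-Hochberg adjustment and a threshold of 0.05; the fits were tested on simulated data. Correlations with MYH2 were tested by 100000 permutations (Python 3.11.15, numpy 2.4.6, pandas 2.3.3, scipy 1.17.1, matplotlib 3.10.9). The brightest tested probe set stood for its gene.

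Named genes were the 9 members; for slow fibre, shared sarcomere, glycolysis and fibre type regulator lists, at most 6 genes past the threshold with the largest slopes per list and fit, with MYH7 always; the 5 genes most and least correlated with MYH2; and the 3 most correlated with each other member. LUM, LEP, ENG, LPL and CDH5 fall outside this rule. Members and lists were chosen with earlier results of these data known. A list of 15 further fast fibre genes, MYH1 and MYH4 among them, had no gene under its symbol in the annotation and was not analysed here. Alternatives were no filter, quantile normalisation, centring of arrays, ranks, means of probe sets, and leaving out the 2 farthest pigs or each pig in turn. Added after seeing the data were leaving out pig 72 in all results, a covariate (the first principal component over tested probe sets outside the lists) and a prior that follows the mean signal. No sequences or genome positions were used here.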

Additional observations from a re-analysis of the deposited data

How the results depend on the processing

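Of 315 slopes of the fast fibre genes under alternatives (35 values, 9 alternatives), 276 kept direction and side of the threshold, 19 lost their call, 6 gained one and 14 changed sign. The 276 include slopes that did not pass in the main fit and again did not pass, so they are not all calls that held. The number of fast fibre genes past the threshold against the slow fibre score was 3, and 0 without the 2 farthest pigs (72 and 69) or without pig 72, with 0 to 3 when each pig was left out in turn; in ranks it was 2, since TNNT3 had an adjusted p of 0.0816. Against oxidative phosphorylation it was 1, then 0 in ranks, without the 2 farthest pigs (72 and 36) and without pig 72, 2 (TNNT3 and TPM1) with the prior that follows the mean signal, and 0 to 3 leaving out each pig. For glycolysis it was 6 to 7 and for MYH2 7 to 8 leaving out each pig. Averaging the tested probe sets of a gene ended the TPM1 calls on slow fibre, glycolysis and MYH2 and the ATP2A1 call on MYH2, and the first principal component as a covariate ended those of MYLPF on glycolysis (adjusted p = 0.122) and ATP2A1 on MYH2 (0.0543). Quantile normalisation ended that of MYL1 on MYH2 (0.123). The cause was not tested.

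Sign changes touched only slopes of MYL1 and TNNC2 that were not past the threshold. MYL1 on the slow fibre score had 0.39 in ranks per SD, 0.0026 without the 2 farthest pigs and 0.0024 without pig 72. MYL1 on oxidative phosphorylation had 0.00056 after quantile normalisation, 0.0040 after centring, 1.36 in ranks, 0.00043 with means of probe sets, 0.0053 without the 2 farthest pigs, 0.0052 without pig 72 and 0.00030 with the covariate. TNNC2 on oxidative phosphorylation had 0.0014 after centring, 0.99 in ranks, 0.0010 without the 2 farthest pigs and 0.0029 without pig 72.

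Counts over all probe sets moved by more than 1.5 times in some settings. The slow fibre count of 555 was 273 in ranks, 96 without the 2 farthest pigs, 123 without pig 72 and 921 with the covariate. The glycolysis count of 4022 was 1444 and the MYH2 count of 2031 was 938 with the covariate, and the oxidative phosphorylation count of 1181 was 704 without pig 72. Scaling moved the split of higher and lower calls: centring gave 2241 and 1170 for glycolysis, against 2226 and 1796, and 989 and 250 for oxidative phosphorylation, against 822 and 359. For MYH2, centring gave 1696 and 493 and quantile normalisation 1111 and 917, against 1329 and 702. No paired analysis was possible because the labels give 1 group. Labels give no array batch, so none was modelled.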

Other observations

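Genes known to set fibre type were read beside MYH2 as well. Of 12 regulators tested, 4 were higher with MYH2 and 1 lower (33.3% and 8.33%), where 11.1% and 5.85% of all tested probe sets were. The median r over the 12 was -0.026. PPP3CA, a catalytic subunit of the calcium-dependent phosphatase calcineurin, rose by 0.23 ± 0.041 log2 per SD of MYH2 (limma adjusted p = 0.000112, r = 0.594, n = 59 pigs). MSTN, myostatin, which restrains muscle growth, rose by 0.31 ± 0.078 (adjusted p = 0.00449). MEF2D and MEF2A, transcription factors of muscle genes, rose by 0.16 ± 0.034 (adjusted p = 0.00112) and 0.11 ± 0.027 (adjusted p = 0.00233). PPARD, a nuclear receptor of oxidative metabolism, had a slope of -0.070 ± 0.022 (adjusted p = 0.0209). All 5 stayed past the threshold when any single pig was left out, with the highest adjusted p, 0.0444, for PPARD. With the first principal component as a covariate, an alternative added after seeing the data, the calls of MSTN, MEF2D and MEF2A ended.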
